A study of Solanum lycopersicum with 14 samples.

Results

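E4 (Solyc03g111720) and E8 (Solyc09g089580) are a pair of tomato genes whose transcripts accumulate in ripening fruit and in fruit exposed to ethylene. Both were found by their identifiers, which each of the 4 deposited tables holds, and they are 2 of the 34725 genes listed there. RNA had been sequenced from pericarp, the fleshy fruit wall, of n3122, a yellow-fruited mutant with M82 as its cultivar background, and of M82, the red-fruited wild type. The n3122 groups were of 35, 47, 54 and 60 DPA and the M82 groups of 35, 47 and 54 DPA. DPA gives the age of the fruit as the labels do, in this field days post anthesis. Each of these 7 groups had 2 libraries, all from plants grown in a greenhouse, and the labels name neither the mutated gene nor a treatment.

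Levels are given in FPKM, sequenced fragments scaled to transcript length and library size, which allows genes of different length to be set side by side. The authors' files give 1 FPKM per gene and group for both libraries together, so no SD stands beside a level, and the spread between libraries and the depth are unknown. A difference between genotypes was called where the q-value, the p-value adjusted by the authors over all genes tested in a table, was at or under 0.05. Fold changes are log2((n3122 FPKM + 1) / (M82 FPKM + 1)), so a negative value is a lower level in n3122. Ages stand in tables scaled separately and were not tested against each other. M82 at 47 DPA is in 2 of the tables, with FPKM values that differ by a nearly constant ratio of 1.04.

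Tomato is a climacteric fruit, in which a burst of ethylene accompanies ripening and sustains it. Receptors in the endoplasmic reticulum bind the hormone and release a block on EIN2, whose signal stabilises the EIN3-like transcription factors that switch on target genes. E4 and E8 are the classical targets used to follow this response in fruit. E4 encodes a methionine sulfoxide reductase, an enzyme that repairs oxidised methionine in proteins. E8 encodes a dioxygenase related to ACC oxidase, the enzyme of the last step of ethylene synthesis, and tomato fruit with less E8 transcript is known to make more ethylene. E4 transcription is known to depend closely on ethylene, whereas E8 is also known to respond to ripening signals that do not require the hormone.

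The identifiers were checked against the RefSeq gene table of assembly SLM_r2.1, which does not carry them. It holds a gene with the synonym E4, under the symbol MSRA, on chromosome 3, and one with the synonym E8/Sl27DOX, under the symbol ACO3, on chromosome 9. Both lie in the same relative place among the genes of their chromosome as the identifiers do, to within 5% of its protein-coding genes. The gene called ACO3 further on is another one, on chromosome 7.

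E4 was lower in n3122 at every age than in any M82 group. It was among the most abundant transcripts of M82 at 47 and 54 DPA. Among genes at 1 FPKM or more, E4 exceeded 59.1% in n3122 at 35 DPA and 80.4% at 60 DPA. In n3122 it stood at 22.6 FPKM at 35 DPA, 33.8 at 47 DPA, 45.6 at 54 DPA and 48.2 at 60 DPA. In M82 it stood at 112 FPKM at 35 DPA, 4672 at 47 DPA and 2477 at 54 DPA. The 4 values of n3122 were thus all lower than each of the 3 values of M82, the youngest fruit included. The oldest n3122 fruit held 43.1% of the E4 level of M82 at 35 DPA, a comparison across tables. By rank among all genes, E4 was 15th in M82 at 47 DPA and 3462nd in n3122 at 60 DPA.

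E8 was expressed at more similar amounts in the youngest fruit of both genotypes, and its level in n3122 was higher at each later age. It had 73.5 FPKM at 35 DPA, 219 at 47 DPA, 356 at 54 DPA and 1112 at 60 DPA in n3122. M82 had 100.3 FPKM at 35 DPA, 5258 at 47 DPA and 4274 at 54 DPA. From 47 DPA on, every n3122 value lay between the youngest M82 fruit and the older M82 fruit. E8 ranked 12th among all genes in M82 at 47 DPA, and 78th in n3122 at 60 DPA. Over both genotypes, E8 ran from n3122 at 35 DPA, the lowest, through M82 at 35 DPA and then n3122 at 47, 54 and 60 DPA to M82 at 54 and 47 DPA. The order for E4 was n3122 at 35, 47, 54 and 60 DPA, then M82 at 35, 54 and 47 DPA. Without values per library, it cannot be said which neighbours in these orders differ beyond their spread.

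**Figure D1:**
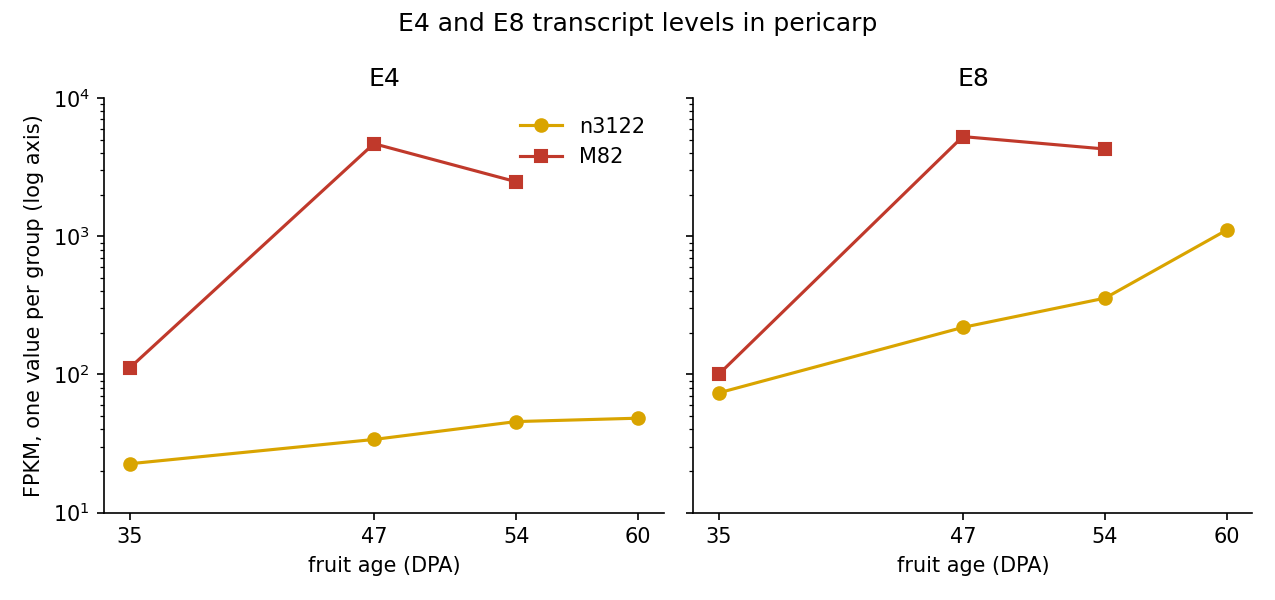
FPKM of E4 (left) and E8 (right) against fruit age in DPA, on a log axis, with n3122 in yellow circles and M82 in red squares. Each point is the authors' single value for a group, and the line of n3122 stays below that of M82 in both panels, reaching 48.2 FPKM for E4 and 1112 FPKM for E8 at 60 DPA.

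Before ripening, at 35 DPA, E4 was called lower in n3122, and E8 was lower without being called. E4 was lower in n3122, at 22.6 FPKM against 112 FPKM in M82, a log2 fold change of -2.26. The authors' deposited table gives it a q-value of 0.00325, the smallest in that table. EIN2, ETR6 and EBF1 share this q-value, as the authors' p-values go no lower than 5e-05. Of all genes tested at 35 DPA, 1.33% were called lower in n3122, and 11 of 18541 had a more negative fold change than E4. E8 was not called, at 73.5 FPKM in n3122 and 100.3 FPKM in M82, with a log2 fold change of -0.44. Its q-value in the authors' deposited table was 0.295, with an unadjusted p-value of 0.0224. Of the 18541 genes tested, 1171 (6.32%) had a more negative fold change than E8.

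At 47 DPA both genes were lower in n3122. E4 stood at 33.8 FPKM in n3122 against 4672 FPKM in M82, which is 138-fold lower (log2 fold change -7.07), and 17 of 18751 genes tested had a more negative fold change. E8 stood at 219 FPKM in n3122 against 5258 FPKM in M82, 24.0-fold lower (log2 fold change -4.58). Both had the smallest q-value of the authors' deposited table, 0.000521, which other genes such as RIN and PL share. The background of genes called lower in n3122 at this age was 9.81%.

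At 54 DPA both were lower again, with smaller fold changes than at 47 DPA. E4 was 54.4-fold lower, at 45.6 FPKM in n3122 and 2477 FPKM in M82 (log2 fold change -5.73). E8 was 12.0-fold lower, at 356 FPKM in n3122 and 4274 FPKM in M82 (log2 fold change -3.58). The q-value was 0.000377 for each in the authors' deposited table, again its smallest and shared by other genes, RIN and PL among them. At this age 11.5% of tested genes were called lower. In bulk tissue, a smaller share of cells that express a gene and less of its RNA in each cell cannot be told apart.

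The 60 DPA fruit of n3122 was set by the authors against M82 at 47 DPA, so genotype and age both differ in that table. E4 remained far lower, at 48.2 FPKM in n3122 against 4486 FPKM in M82 (log2 fold change -6.51). The q-value was 0.000943, the smallest that the authors' deposited table holds, shared by other genes such as PL and EIN2. Only 9 of 18823 tested genes had a more negative fold change than E4. E8 was 4.54-fold lower, at 1112 FPKM in n3122 against 5048 FPKM in M82 (log2 fold change -2.18), and 264 genes had a more negative one. Its q-value of 0.0316, from the authors' deposited table, passes 0.05 and misses 0.01. In this comparison 7.07% of tested genes were called lower at 0.05 and 4.18% at 0.01.

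The balance between both genes differed by genotype in each group. E8 had 3.26 times the FPKM of E4 in n3122 at 35 DPA, 6.47 times at 47 DPA, 7.82 times at 54 DPA and 23.1 times at 60 DPA. In M82 the ratio was 0.897 at 35 DPA, 1.13 at 47 DPA and 1.73 at 54 DPA. The lowest ratio in n3122 was thus above the highest in M82. On the log2 scale, the fold change of E8 exceeded that of E4 by 1.82 at 35 DPA, 2.49 at 47 DPA and 2.15 at 54 DPA. Between n3122 at 60 DPA and M82 at 47 DPA it did so by 4.33. None of these differences could be tested, since no values per library are given.

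**Figure D2:**
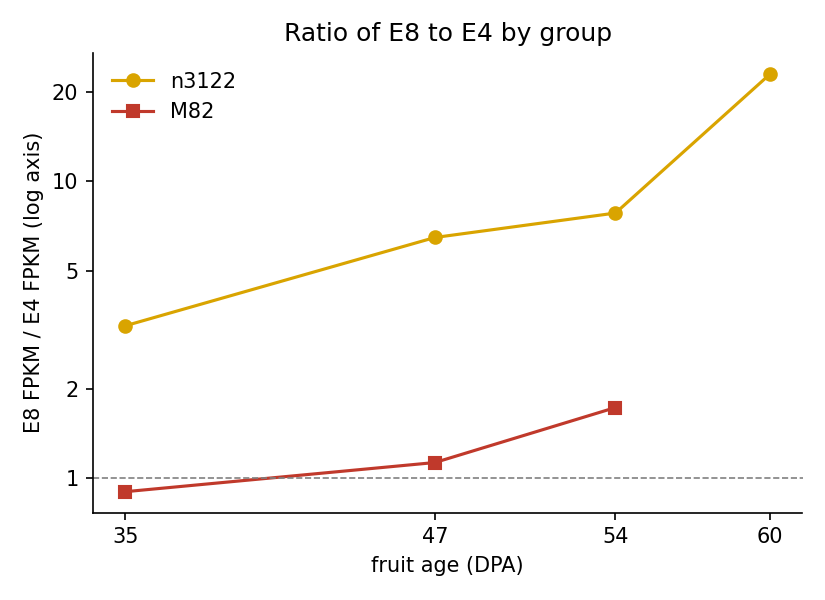
FPKM of E8 divided by FPKM of E4 against fruit age in DPA, on a log axis, for n3122 (yellow circles) and M82 (red squares), with a dashed line at equal levels. The ratio lies between 3.26 and 23.1 in n3122 and between 0.897 and 1.73 in M82.

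With age, both genes gained far less in n3122 than in M82 up to 47 DPA. From 35 to 47 DPA, E8 had a log2 change of 1.56 in n3122 and 5.70 in M82, and E4 one of 0.56 in n3122 and 5.37 in M82. The M82 changes are among the largest in the tables, with 59 of 18819 genes above E8 and 78 above E4. In M82 the FPKM became 52.4 times as high for E8 and 41.8 times as high for E4. From 47 to 54 DPA the log2 change of E4 was 0.42 in n3122 and -0.92 in M82, and that of E8 was 0.70 in n3122 and -0.30 in M82.

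From 54 to 60 DPA, an interval sampled in n3122 only, E8 was 3.12 times as high at the later age and E4 1.06 times. In log2 units these are 1.64 and 0.08. Larger changes were seen for 226 of 18583 genes in the case of E8, which is 1.22%, and for 30.8% in the case of E4. Over the whole span from 35 to 60 DPA, the level of E8 in n3122 became 15.1 times as high and that of E4 2.14 times. These changes are between tables, and the median change of all genes between ages lay from -0.13 to 0.06 on the log2 scale.

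The other genes of ethylene and ripening were taken from a list of 41 genes chosen with earlier results of these data known. No test was made on the list as a whole. At 35 DPA, 5 of its 40 tested genes were lower in n3122 and 1 was higher, with a median log2 fold change of -0.11 against -0.01 over all tested genes. Beside E4, EIN2 was lower, at 3.75 FPKM in n3122 and 48.9 FPKM in M82. The receptor gene ETR6 (log2 fold change -1.12), EBF1, an F-box gene of EIN3 turnover (-1.03), and the ACC oxidase genes ACO5 (-1.16) and ACO6 (-0.69) were the others called lower. SGR1, which acts in chlorophyll breakdown, was the gene called higher. Over all tested genes at this age, 1.33% were called lower and 1.91% higher.

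Later the list was lower more widely. At 47 DPA 27 of 41 were lower and 3 higher in n3122, with a median log2 fold change of -1.87 against 0.01 over all tested genes. At 54 DPA 26 were lower and 7 higher (median -1.45 against -0.02). Between n3122 at 60 DPA and M82 at 47 DPA, 25 of 40 tested were lower and 2 higher (median -1.10 against 0.02). Over all tested genes, 9.81%, 11.5% and 7.07% were called lower in these 3 comparisons, and 13.7%, 18.1% and 7.93% higher. By role, the 10 ripening targets, genes of softening, carotenoids, chlorophyll loss and aroma, were all lower at 47 DPA. Of the 7 ripening regulators 5 were lower. Perception and signalling had 7 lower and 1 higher among 14 genes at 47 DPA, and ethylene synthesis 5 lower and 2 higher among 10. At 54 DPA ethylene synthesis had 3 lower and 6 higher, with a median log2 fold change of 0.90. The other roles then had 10 of 10 targets, 5 of 7 regulators and 8 of 14 perception and signalling genes lower, the last with 1 higher. Between n3122 at 60 DPA and M82 at 47 DPA, ethylene synthesis had 4 lower and 1 higher among 9 tested. The log2 fold changes of E4 and E8 at 47 DPA, -7.07 and -4.58, compare with a median of -6.15 over the 10 ripening targets.

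How far old mutant fruit came to the ripening M82 level differed between E4 and E8. At 60 DPA n3122 held 1.07% of the E4 level and 22.0% of the E8 level of M82 at 47 DPA. Both genes and 23 of the list had a log2(FPKM + 1) at least 2 units higher, or 4-fold, in M82 at 47 DPA than at 35 DPA, and among these 25 E4 had the smallest percentage, while E8 was 16th from the top. Next to E4 stood PL, a pectate lyase gene of softening, at 2.10%, CEL2, an endoglucanase gene, at 2.48%, and ZISO, the zeta-carotene isomerase gene, at 3.79%. Next to E8 stood CNR, a regulator of ripening, at 22.6%, PG2A, the fruit polygalacturonase gene, at 23.0%, and the receptor gene ETR4 at 17.2%. At the top were the ACC synthase genes ACS1A at 155% and ACS4 at 143%, the lipoxygenase gene LOXC at 72.8% and the acyltransferase gene AAT1 at 60.1%.

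**Figure D3:**
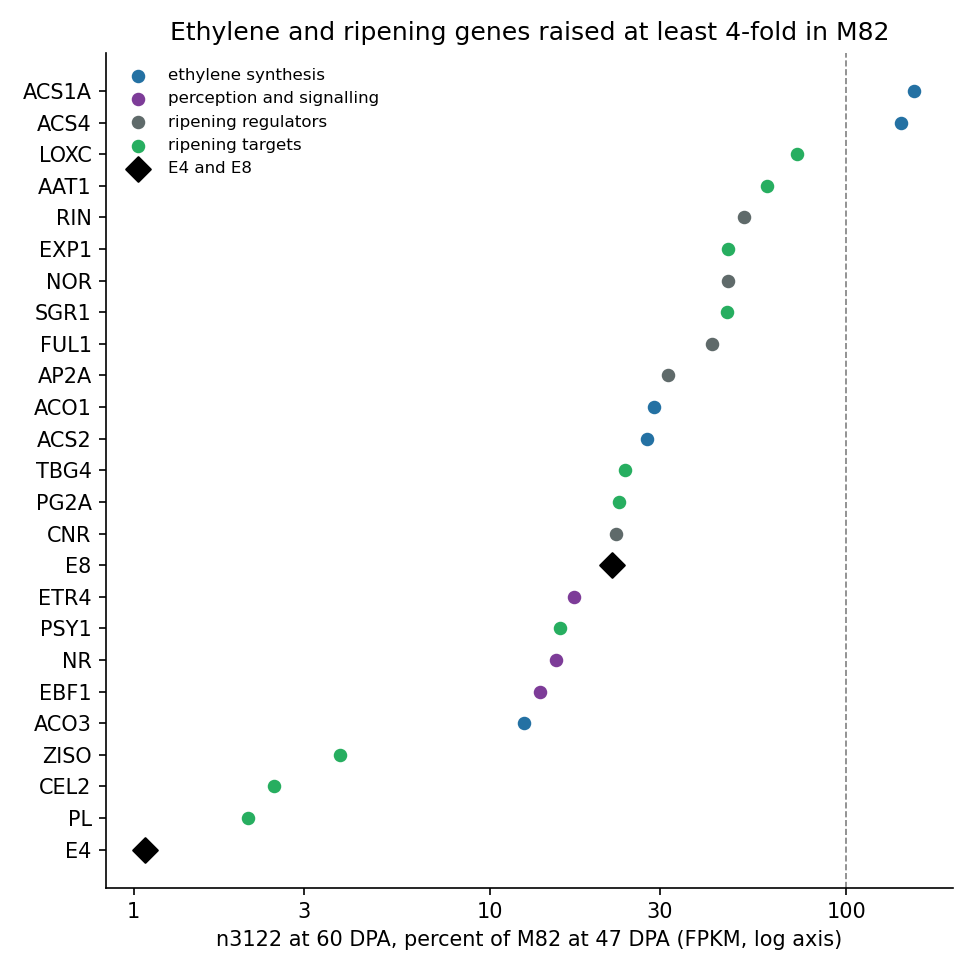
Percentage of the M82 level at 47 DPA held by n3122 at 60 DPA, on a log axis, for E4, E8 (black diamonds) and 23 ethylene and ripening genes (coloured by role) with at least 4-fold higher levels in M82 at 47 than at 35 DPA. E4 is lowest at 1.07% and E8 stands at 22.0%, below the middle of the order, and the dashed line marks 100%.

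The same percentage was taken over every gene with such an increase in M82. Across 699 genes, n3122 at 60 DPA held a median of 34.7% of the M82 level at 47 DPA, with quartiles of 15.3% and 62.8%. E4 lay below the lower quartile, with 6.44% of these genes lower than it. E8 lay between the lower quartile and the median, with 34.8% of the genes lower. At 47 DPA the same genes held a median of 16.8% of the M82 level, against 0.724% for E4 and 4.16% for E8. At 54 DPA the median over the 694 of them above 0 FPKM in M82 was 26.5%, against 1.84% for E4 and 8.34% for E8. These genes were selected by their M82 level at 47 DPA, which is also the denominator at 47 and 60 DPA.

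The genes that flank E4 on chromosome 3 include others with a ripening course. Of the 5 identifiers on each side of it, PL (Solyc03g111690) is the third before it, and the RefSeq table of SLM_r2.1 also places PL near E4, with 3 genes between them. PL had 3.61, 4.21, 6.40 and 36.9 FPKM in n3122 at 35, 47, 54 and 60 DPA, against 3.69, 1832 and 2166 FPKM in M82 at 35, 47 and 54 DPA. Solyc03g111730, the identifier right after E4, had 2.29, 1.53, 2.38 and 5.13 FPKM in n3122 and 2.36, 116 and 44.2 FPKM in M82 at the same ages. PL and Solyc03g111730 were therefore, like E4, at their highest in M82 at 47 or 54 DPA, with no n3122 value near it. The 2 identifiers listed between PL and E4 had another course. Solyc03g111710, right before E4, was higher in n3122 at 47 DPA, with 36.4 FPKM against 17.0 FPKM in M82 (log2 fold change 1.05), and Solyc03g111700 was not called there, at 49.7 FPKM in n3122 and 33.1 in M82.

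By count, 2 of the 7 flanking genes of E4 tested at 47 DPA were lower in n3122 and 1 was higher, and at 54 DPA 2 of 7 were lower and 4 higher. Over all tested genes the shares were 9.81% lower and 13.7% higher at 47 DPA, and 11.5% lower and 18.1% higher at 54 DPA. At 35 DPA none of 8 was called in the authors' deposited table, none of them with an unadjusted p-value under 0.05. Between n3122 at 60 DPA and M82 at 47 DPA, 2 of 8 were lower, against 7.07% of all tested genes. The genes lower in these 3 comparisons were PL and Solyc03g111730 each time.

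Among the 5 identifiers on each side of E8 on chromosome 9 there was no gene of comparable level. Between E8 and ETR6 the identifiers leave 2 genes, whereas the RefSeq table of SLM_r2.1 places 8 there. ETR6 (Solyc09g089610), the third identifier after E8, had 3.98, 11.7, 10.7 and 4.77 FPKM in n3122 at 35, 47, 54 and 60 DPA, against 9.83, 41.5 and 30.9 FPKM in M82 at 35, 47 and 54 DPA. All 4 comparisons called it lower in n3122, with log2 fold changes of -1.12, -1.74, -1.45 and -2.83 in order of the age of n3122. The oldest n3122 fruit thus had less ETR6 than n3122 at 47 DPA, the opposite of the course of E8. Solyc09g089620 was also called lower at 47 and 54 DPA, where it is listed at 0 in n3122 and at 3.17 and 6.92 FPKM in M82. Solyc09g089530, before E8, was the 1 gene called higher, at 54 DPA, with 2.43 FPKM in n3122 and 0 in M82. Of the flanking genes tested, 1 of 5 was lower at 35 DPA, 2 of 6 at 47 DPA and 2 of 7 at 54 DPA. Between n3122 at 60 DPA and M82 at 47 DPA, 1 of 6 was lower. Over all tested genes, 1.33%, 9.81%, 11.5% and 7.07% were called lower, and 18.1% higher at 54 DPA. Solyc09g089590 and Solyc09g089600, right after E8, are listed at 0 in all groups. The authors' handling of reads shared by near-identical genes is not given in the sources used here.

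**Figure D4:**
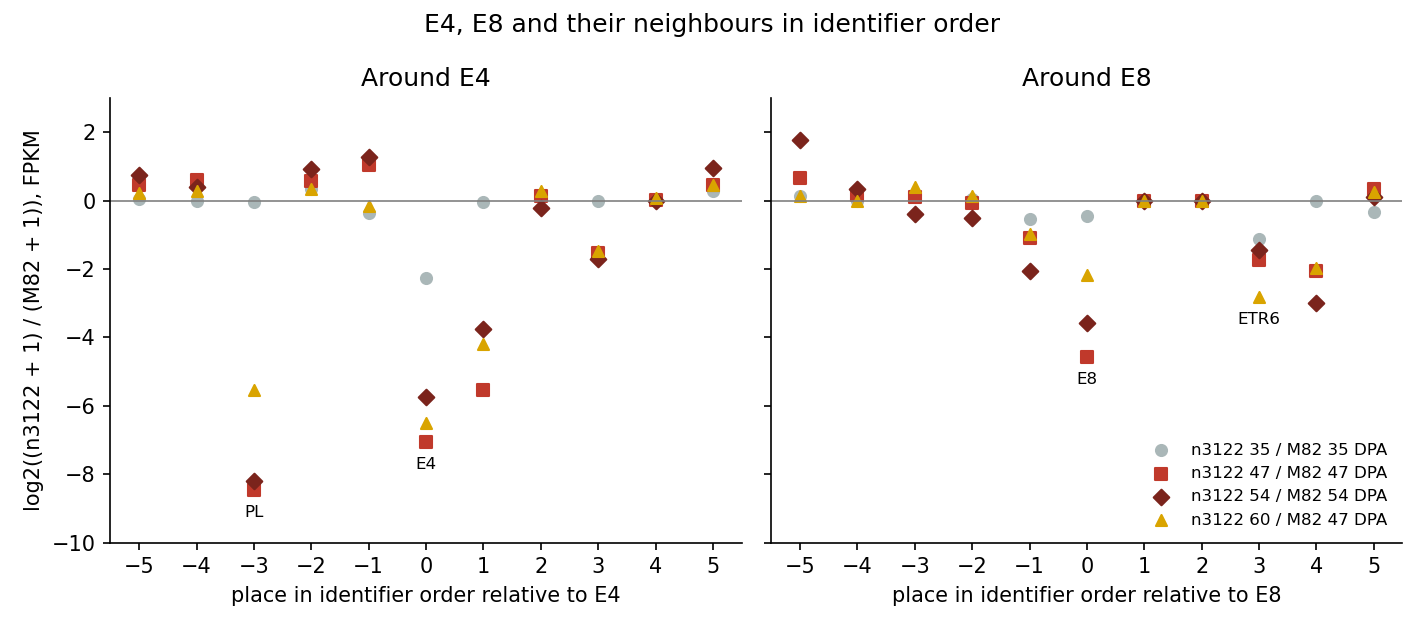
Log2 fold change of n3122 over M82 in the 4 comparisons (marker shape and colour) for the 5 identifiers on each side of E4 (left) and E8 (right), placed by identifier order and not to genomic scale. PL reaches -8.46 and E4 -7.07 at 47 DPA, while the 2 identifiers between them are at 0.57 and 1.05. ETR6 is the one named gene beside E8.

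The genes nearest to E4 and E8 in their courses were sought among 13668 genes above 0 FPKM in every group and at 10 FPKM or more in at least 1. Likeness was the root mean square difference in log2(FPKM + 1) over the 7 groups, each gene centred on its own mean, and the 7 points share tables and libraries among genes. The gene nearest to E8 was ACS2 (Solyc01g095080), a ripening-related ACC synthase gene, at a difference of 0.22. ACS2 had 4.12, 12.0, 21.1 and 97.7 FPKM in n3122 at 35, 47, 54 and 60 DPA, and 4.34, 369 and 310.5 FPKM in M82 at 35, 47 and 54 DPA. Its level relative to M82 at 47 DPA was 27.6% in n3122 at 60 DPA, against 22.0% for E8.

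The next nearest to E8 were Solyc10g085890 (0.38) and Solyc10g085880 (0.38), which carry neighbouring identifiers, Solyc02g062390 (0.38) and Solyc07g045090 (0.39). Solyc10g085880 was also abundant, with 94.3, 236, 339 and 989.6 FPKM in n3122 and 76.1, 3725 and 2305 FPKM in M82 at the same ages. Solyc07g045090 was low, with 0.0286, 0.314, 1.28 and 8.65 FPKM in n3122 and 0.0343, 51.5 and 33.6 FPKM in M82. The pseudocount of 1 FPKM understates its changes at these levels. At a minimum of 100 FPKM, which it does not reach, another gene took its place. The files give no name for these 4 genes.

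E4 had no neighbour as close. The nearest were Solyc01g107400 (0.64), Solyc12g096570 (0.67) and Solyc11g008720 (0.72), followed by ZISO (Solyc12g098710) at 0.81 and Solyc12g056600 at 0.83. Solyc11g008720 was under 1 FPKM in every n3122 group and in M82 at 35 DPA. Solyc12g056600 was so too, except for 1.53 FPKM in n3122 at 54 DPA. At such levels the pseudocount understates changes. ZISO had 41.0, 38.4, 50.7 and 79.0 FPKM in n3122 at 35, 47, 54 and 60 DPA and 39.4, 2172 and 1898 FPKM in M82 at 35, 47 and 54 DPA. Unlike E4, it did not differ detectably at 35 DPA, with a log2 fold change of 0.06. Solyc01g107400 had 1.25, 3.75, 5.68 and 1.03 FPKM in n3122 and 6.75, 283 and 327 FPKM in M82 at the same ages. The difference between E4 and E8 themselves was 1.55, which made E8 the 75th nearest gene to E4 and E4 the 470th nearest to E8.

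**Figure D5:**
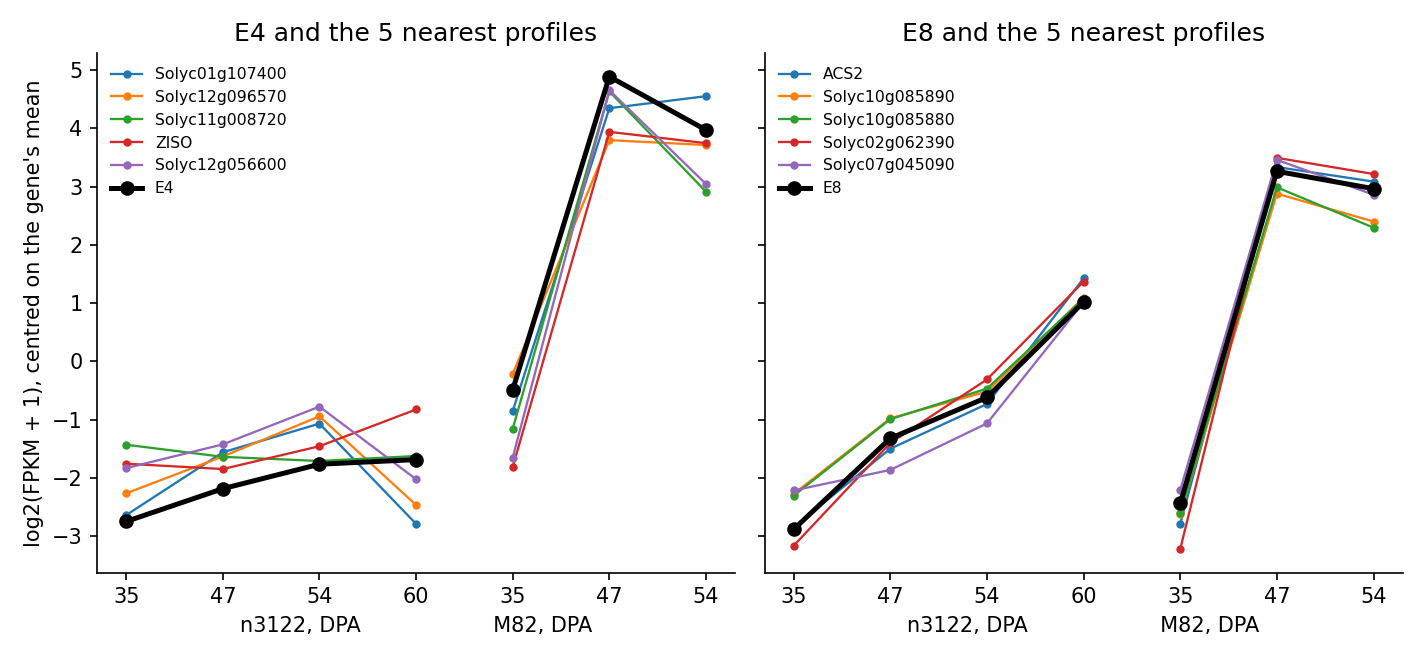
Log2(FPKM + 1), centred on each gene's mean over 7 groups, against group (n3122 at 35 to 60 DPA, then M82 at 35 to 54 DPA), for E4 (left) and E8 (right) in black and the 5 nearest genes in colour. ACS2 follows E8 at a root mean square difference of 0.22, whereas the nearest gene to E4 is at 0.64.

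Markers of the epidermis, the other tissue layer a pericarp sample holds, were also followed. The summed FPKM of 6 such genes was 778, 193, 177 and 204 in n3122 at 35, 47, 54 and 60 DPA, and 540, 129 and 150 in M82 at 35, 47 and 54 DPA. None of the 6 was called at 35 DPA in the authors' deposited table, where 2 had an unadjusted p-value under 0.05. CD1, a cutin synthase gene, was higher in n3122 at 47 DPA, and CD1 and CD2, a regulator of the cuticle, were higher at 54 DPA and in the table with n3122 at 60 DPA. Over all tested genes, 1.91% were called higher at 35 DPA, 13.7% at 47 DPA and 18.1% at 54 DPA. Between n3122 at 60 DPA and M82 at 47 DPA the share was 7.93%. SHN3 was the only one of the 6 at 0, in M82 at 47 DPA. In M82, CD1 went from 289 FPKM at 35 DPA to 0.48 at 47 DPA and 0.45 at 54 DPA, and CYP86A69 from 103 to 0.05 and 0.07. In n3122 CD1 went from 447 FPKM at 35 DPA to 5.67 at 60 DPA, and CYP86A69 from 127 to 1.24. CER6, at 89.7 and 114 FPKM, and CD2, at 29.3 and 29.2 FPKM, made up most of the M82 sums at 47 and 54 DPA. The part of tissue makeup in the levels of E4 and E8 was not tested.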

How the data were processed

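The data were 4 deposited tables, each setting one n3122 group against one M82 group over 34725 genes. The submitters' processing notes name CASAVA, TopHat2 (version 2.0) and Cufflinks. Genome build and annotation are not given in these sources. Per the file headers, the authors give 1 FPKM value for each gene and group, and for each gene a p-value, a q-value and a test statistic. This deposited score has the opposite sign to the fold change in the table with n3122 at 60 DPA, and the FPKM columns set all directions. M82 at 47 DPA agreed between its 2 tables up to a ratio of 1.04 (SD 0.00128 over 17208 genes).

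Fold changes with a pseudocount of 1 FPKM, which understates changes of low genes, were computed with pandas 2.3.3 and numpy 2.4.6. No test was added, since values per library are not given. With 2 libraries per group and no word on separate plants, the authors' p-values may measure technical spread only. E4, E8, their 5 flanking identifiers on each side, the 5 nearest profiles and an ethylene and ripening list were named by a fixed rule. The members and lists were chosen with earlier results of these data known. Of 50 symbol and identifier pairs, 46 matched the place of a gene of that name in the RefSeq table of SLM_r2.1, 3 had no such symbol there (NR, MIXTA and CYP86A69), and EBF2 lay elsewhere and was dropped. Other pseudocounts, scalings, thresholds and measures of likeness were tried.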

Additional observations from a re-analysis of the deposited data

Results flagged for a closer look

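Between 47 and 54 DPA both genes went opposite ways in the genotypes. The log2 change of E4 was 0.42 in n3122 and -0.92 in M82, and that of E8 was 0.70 in n3122 and -0.30 in M82. The signs held with a pseudocount of 10 FPKM and with the median of all genes set to 0. The difference was not tested, because each group has 1 value and the ages stand in tables scaled separately.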

How the results depend on the processing

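The log2 fold changes of E4 and E8 kept their sign and stayed within 1.5-fold of the reported values under pseudocounts of 0.1 and 10 FPKM and under scaling to the median, the upper quartile or the group total. E4 ranged from -2.30 to -1.90 at 35 DPA and from -7.11 to -6.74 at 47 DPA, and E8 from -4.62 to -4.38 at 47 DPA and from -2.29 to -2.02 between n3122 at 60 DPA and M82 at 47 DPA. At a q-value of 0.01, 1 of the 2 genes, E4, was still called in that last comparison. The ethylene and ripening list then held 0 genes called higher at 35 DPA, also 0 with a minimum of 2-fold, and 1 called higher at 47 DPA, fewer by the rule's own construction. Changes with age moved by less than 1.5-fold under each setting tried; for n3122 at 60 DPA this included scaling by the M82 group that 2 tables share, which was chosen after seeing the data. Ranking by Pearson correlation, which ignores the size of a change, shared 0 of the 5 genes nearest to E4 and 1 of the 5 nearest to E8, ACS2. No paired analysis was possible because the tables hold 1 value per group and none per library, and for the same reason no replicate could be left out. Depth is unknown, so no counting interval is given.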
